A study of Ovis aries with 6 samples.

Results

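OXT (ENSOARG00000004595), the gene of the oxytocin precursor, was followed across ovary libraries of a pair of sheep breeds together with RGN (ENSOARG00000013817) and PRLR (ENSOARG00000011449), which had been set beside it as luteal genes. They are 3 of the 14480 genes in the deposited table and were found by their symbols. They were selected on their measured FPKM in these libraries, so their own levels are given as a description and carry no test. The samples were ovaries of Hu sheep and of Mongolian sheep (Ovis aries), 3 libraries of polyadenylated RNA per breed, all collected during estrus. Hu sheep are a prolific breed and Mongolian sheep are not, and the comparison asks which ovarian transcripts differ between breeds of unlike reproductive capacity. The title of the series speaks of exosomes, whereas the source of every library is given as ovary. The labels give breed, tissue and stage for each library and no treatment, and do not say whether the libraries of a breed came from separate animals or which structures of the ovary were sampled. Levels are FPKM, fragments scaled by transcript length and by the library's total, which allows genes to be compared within a library.

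Oxytocin is best known as a hypothalamic hormone, but in ruminants the ovary makes it too. Granulosa cells of the follicle start to transcribe OXT around ovulation, and the large cells of the corpus luteum that forms from the follicle store the peptide and release it in pulses that act together with prostaglandin F2 alpha from the uterus at the end of the cycle. RGN encodes regucalcin, a calcium-binding protein that also acts as a gluconolactonase, and PRLR encodes the prolactin receptor, which signals through JAK2 and STAT5 and takes part in luteal support in several mammals. At estrus the corpus luteum of the previous cycle has regressed and the next one has not yet formed.

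OXT spanned a wide range among the 6 libraries and did not follow breed. It stood at 0, 0 and 305 FPKM in Mongolian 1, 2 and 3 and at 78.6, 9.74 and 42.1 FPKM in Hu 1, 2 and 3. The highest level and the 2 values of 0 were all in Mongolian libraries, and the 3 Hu libraries lay between them. In rising order the libraries were Mongolian 1 and Mongolian 2 (tied), Hu 2, Hu 3, Hu 1 and Mongolian 3. The level in Hu 3 was 4.32 times that in Hu 2, the level in Hu 1 was 1.87 times that in Hu 3, and the level in Mongolian 3 was 3.88 times that in Hu 1. Each step is between single libraries and has no replicate error of its own. OXT was the 39th most abundant row of the table in Mongolian 3, the 157th in Hu 1, the 605th in Hu 3 and the 1527th in Hu 2. In bulk tissue, fewer cells of a type and less RNA per cell cannot be told apart, so a level is that of the whole sample. Just 4 of the other 14479 rows (0.0276%) were listed in the same 4 libraries as OXT.

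**Figure D1:**
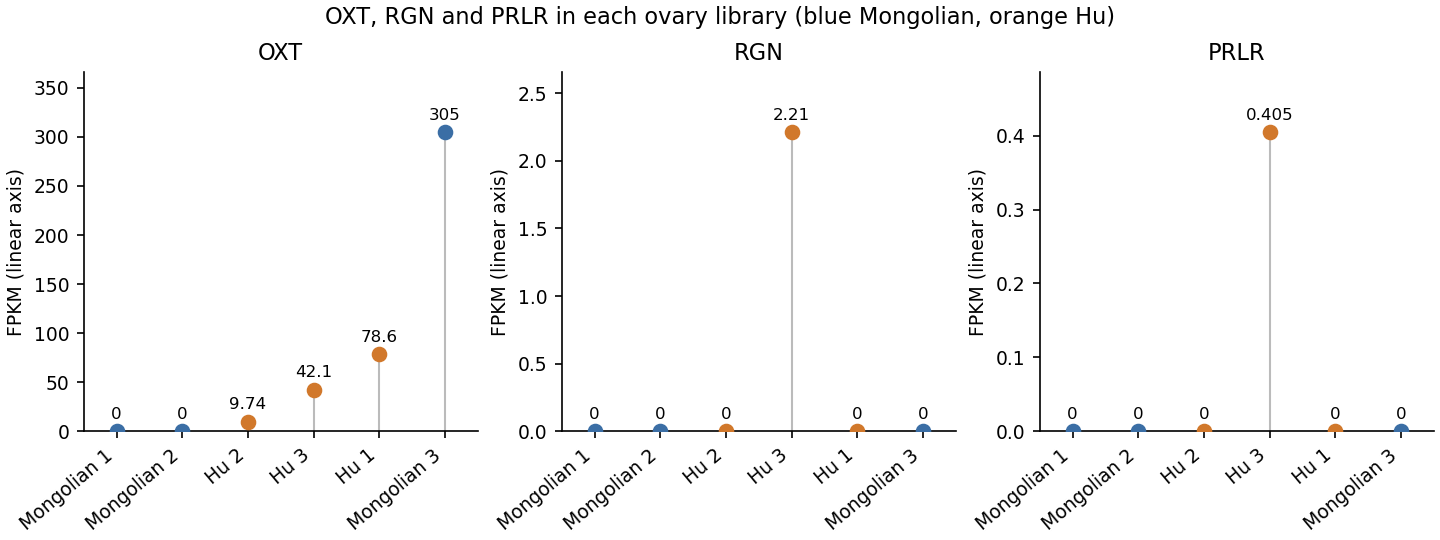
FPKM of OXT, RGN and PRLR (linear axes, each from 0) in the 6 libraries, placed in rising order of OXT; each point is a library, blue for Mongolian and orange for Hu, with its value printed. OXT climbs from 0 in Mongolian 1 and 2 to 305 in Mongolian 3, whereas RGN and PRLR are above 0 in Hu 3 alone.

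The breed that looked higher for OXT depended on the scale. The mean of log2(FPKM + 1) was 5.06 in Hu and 2.75 in Mongolian, a difference of 2.30 with a standard deviation within breeds of 3.53, which is larger than the difference. The median was 42.1 FPKM in Hu and 0 in Mongolian. On the linear scale the order turned, with a mean of 43.5 FPKM in Hu and 102 in Mongolian, a mean that Mongolian 3 supplied alone. A Hu library lay above a Mongolian library in 6 of 9 pairs. The place of every library in the order of OXT was the same after median-of-ratios scaling and after setting the libraries to 1 sum, with or without the 2 most abundant rows, and after quantile normalization only the tie between Mongolian 1 and Mongolian 2 was broken. The size of the steps was less stable than their order. Over these 4 scalings the step from Hu 2 to Hu 3 was 2.13-fold to 4.24-fold, that from Hu 3 to Hu 1 was 2.38-fold to 4.49-fold, and that from Hu 1 to Mongolian 3 was 2.16-fold to 3.99-fold. The 2 most abundant rows held 53.3% of the summed FPKM in Hu 3 and 74.2% to 79.7% in the other libraries.

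RGN and PRLR did not mark the libraries that were high in OXT. RGN was listed at 0 in Mongolian 1, 2 and 3, Hu 1 and Hu 2 and at 2.21 FPKM in Hu 3. PRLR was listed at 0 in the same 5 libraries and at 0.405 FPKM in Hu 3. Both were thus at 0 in Mongolian 3, where OXT was highest, and in Hu 1, where it was second. The data therefore gave no graded order of libraries by RGN or PRLR, and neither gene shared the pattern of OXT. Whether either gene marks luteal tissue here was not tested. With a value in 1 library RGN and PRLR did not reach the 0.5 FPKM in at least 3 libraries that a gene needed to be tested, whereas OXT did.

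Hu 3 was also the library that listed the most genes, which bears on RGN and PRLR. It had 13342 rows above 0, against 6500 in Hu 1, 7971 in Hu 2 and 10547 to 11463 in the Mongolian libraries. Rows above 0 in Hu 3 and nowhere else numbered 1139, or 7.87% of the table, against 35 to 269 for any other library. RGN and PRLR are 2 of these 1139. Their median was 0.846 FPKM, and 20.0% of them lay above RGN and 72.0% above PRLR. Among the rows that moved most like RGN and PRLR, by a rule that takes the 5 with the highest correlation and a mean of at least 2 FPKM, was SNRPG (18.3 FPKM), listed in Hu 3 alone. FARP1 stood at 16.7 FPKM in Hu 3 and between 6.02 and 7.19 elsewhere, ZPR1 at 28.7 against 2.59 to 4.19, and MED30 at 16.0 against 0 to 0.683. RGN and PRLR have the same pattern up to scale, and because it sets 1 library against the rest, no coefficient is given. SNRPG, a core spliceosome protein, is used by most cells, so a value of 0 can be a transcript that was missed. Of 11 genes often used as references, chosen after the table was seen, 3 were at 0 in Hu 1, 1 each in Hu 2, Mongolian 1 and Mongolian 3, and none in Hu 3 or Mongolian 2. The part that the number of listed genes had in the values of RGN and PRLR was not tested.

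**Figure D2:**
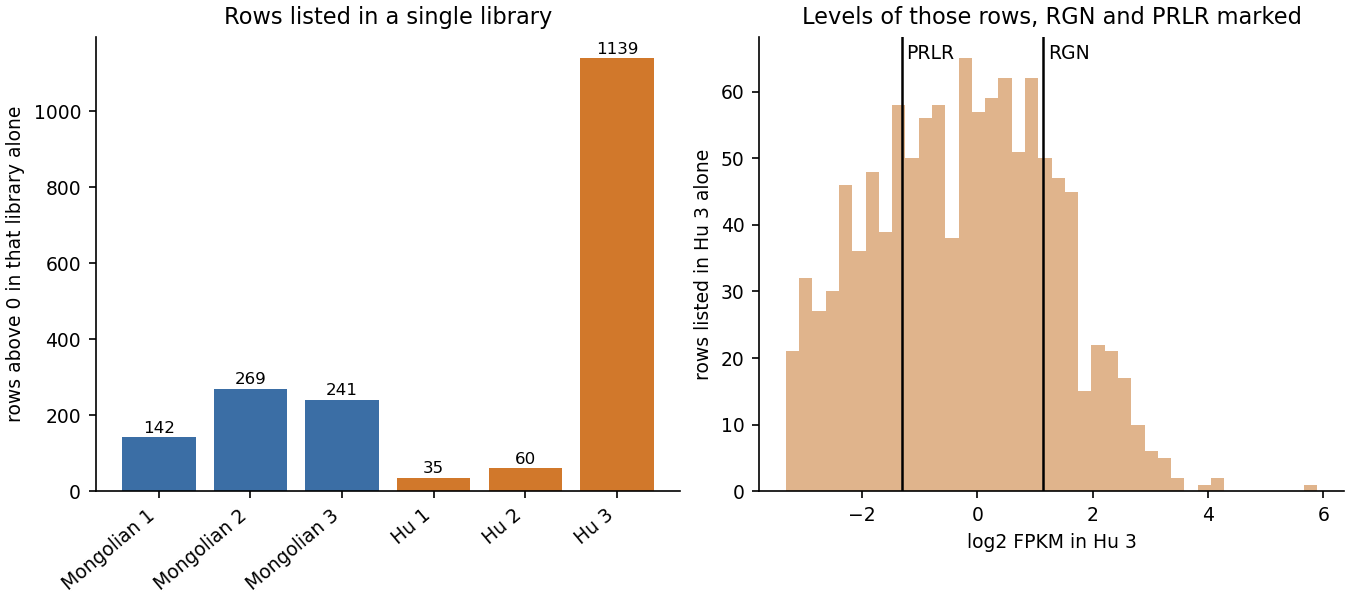
Left, rows of the gene table above 0 in a single library, by library (bars from 0; blue Mongolian, orange Hu): 1139 in Hu 3 against 35 to 269 elsewhere. Right, the log2 FPKM of the rows listed in Hu 3 alone, with lines at RGN and PRLR; RGN stands in the upper part of this distribution and PRLR in the lower.

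Genes that process oxytocin or carry its signal were examined from a list of 20, of which 11 were listed and 9 tested. The receptor gene OXTR and AVP, the vasopressin gene beside OXT whose coding sequence is partly near-identical to it, were not among the symbols of the table used here, and the level of OXT is uncertain to the extent that reads of the shared stretch could be assigned to either gene. PCSK1, a convertase that cleaves prohormones, stood at 3.01 FPKM in Mongolian 3 and at 0.293 in Hu 3 and was listed at 0 in the other 4 libraries, so its highest value fell in the library highest in OXT. CPE, which trims the cleaved ends, stood at 16.3, 11.9 and 12.1 FPKM in Mongolian 1, 2 and 3 and at 4.57, 22.0 and 16.9 in Hu 1, 2 and 3. PAM, which amidates the peptide, ranged only from 10.9 to 17.6 FPKM over the 6 libraries, with 11.1 in Mongolian 3 and 10.9 in both Hu 1 and Hu 2. Neither CPE nor PAM was highest in Mongolian 3, and both were listed in the libraries without OXT. LNPEP, the aminopeptidase that degrades oxytocin, was highest in Mongolian 3 at 3.16 FPKM and lowest in Hu 1 at 0.812. Of the Gq proteins that couple the receptor, GNAQ stood at 6.99, 7.22 and 5.21 FPKM in Mongolian and at 0, 2.24 and 12.1 in Hu, and GNA11 at 9.07, 5.79 and 13.5 in Mongolian and at 0, 0 and 5.51 in Hu. The secretory granule gene CHGA was highest in Mongolian 3 at 11.2 FPKM and lowest in Hu 3 at 1.33. It was nearly as high in Mongolian 1, which did not list OXT, at 9.9998 FPKM. In Mongolian 2 CHGA stood at 1.93 FPKM, and in Hu 1 and Hu 2 at 1.69 and 3.04. CHGA thus did not follow OXT across the libraries.

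The luteal steroid and receptor list held 19 genes, of which 14 were listed and 12 tested, and its members parted between Mongolian 3 and Hu 3. HSD3B1, which makes progesterone, stood at 2.67, 1.99 and 41.3 FPKM in Mongolian 1, 2 and 3 and at 6.94, 0 and 11.2 in Hu 1, 2 and 3. NR5A2, a nuclear receptor needed for luteal steroid synthesis, stood at 2.77, 1.95 and 25.6 FPKM in Mongolian and at 5.33, 0.962 and 3.51 in Hu. Both were highest in the library highest in OXT. SCARB1, the receptor that takes up cholesterol from high-density lipoprotein, was likewise highest in Mongolian 3, at 12.2 FPKM against 2.54 to 5.33 elsewhere, and so was FDXR, which passes electrons to CYP11A1, at 13.1 against 0.394 to 2.63. CYP11A1, the side-chain cleavage enzyme, reached 29.0 FPKM in Mongolian 3 and 29.96 in Hu 3, against 1.67 to 8.04 in the other 4 libraries.

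Other luteal genes were lower in Mongolian 3 than in Hu 3. STAR, which carries cholesterol into the mitochondrion, stood at 1.58, 7.495 and 1.75 FPKM in Mongolian and at 5.05, 7.28 and 18.9 in Hu. PTGFR, the prostaglandin F2 alpha receptor, stood at 5.36, 2.45 and 2.23 FPKM in Mongolian and at 0, 0 and 53.7 in Hu. LHCGR, the luteinizing hormone receptor, was listed at 0 in Mongolian 3, at 9.24 FPKM in Hu 3, at 2.69 in Mongolian 2 and at 0.376 in Hu 1. In the deposited FPKM all of these were highest in Hu 3, as was FDX1, the ferredoxin partner of CYP11A1. FDX1 stood at 27.2 FPKM there and at 3.34 in Mongolian 3. After median-of-ratios scaling Hu 1 stood above Hu 3 for FDX1, and Mongolian 3 above Hu 3 for CYP11A1. Both also held with libraries set to 1 sum without the 2 most abundant rows, but not with those rows kept. NPC2, a cholesterol carrier of the lysosome, was lowest among the libraries that listed it in Mongolian 3 (3.41 FPKM) and highest in Hu 3 (21.4). By oxytocin, Mongolian 3 thus stood first, with high HSD3B1, NR5A2 and CYP11A1 and with STAR, LHCGR and PTGFR far below Hu 3. PTGFR was lower still in Hu 1 and Hu 2, and LHCGR was at 0 in Mongolian 1 and Hu 2 as well. Of the 12 tested members 4 were highest in Mongolian 3 and 7 in Hu 3 in the deposited FPKM. Of all genes tested 26.6% and 45.0% were highest in those libraries. Members of this list had a positive correlation with OXT in 9 of 12 cases, beside 49.0% of all genes tested. No member passed adjustment. The list was chosen with earlier results of these libraries known, so the count is no independent support.

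**Figure D3:**
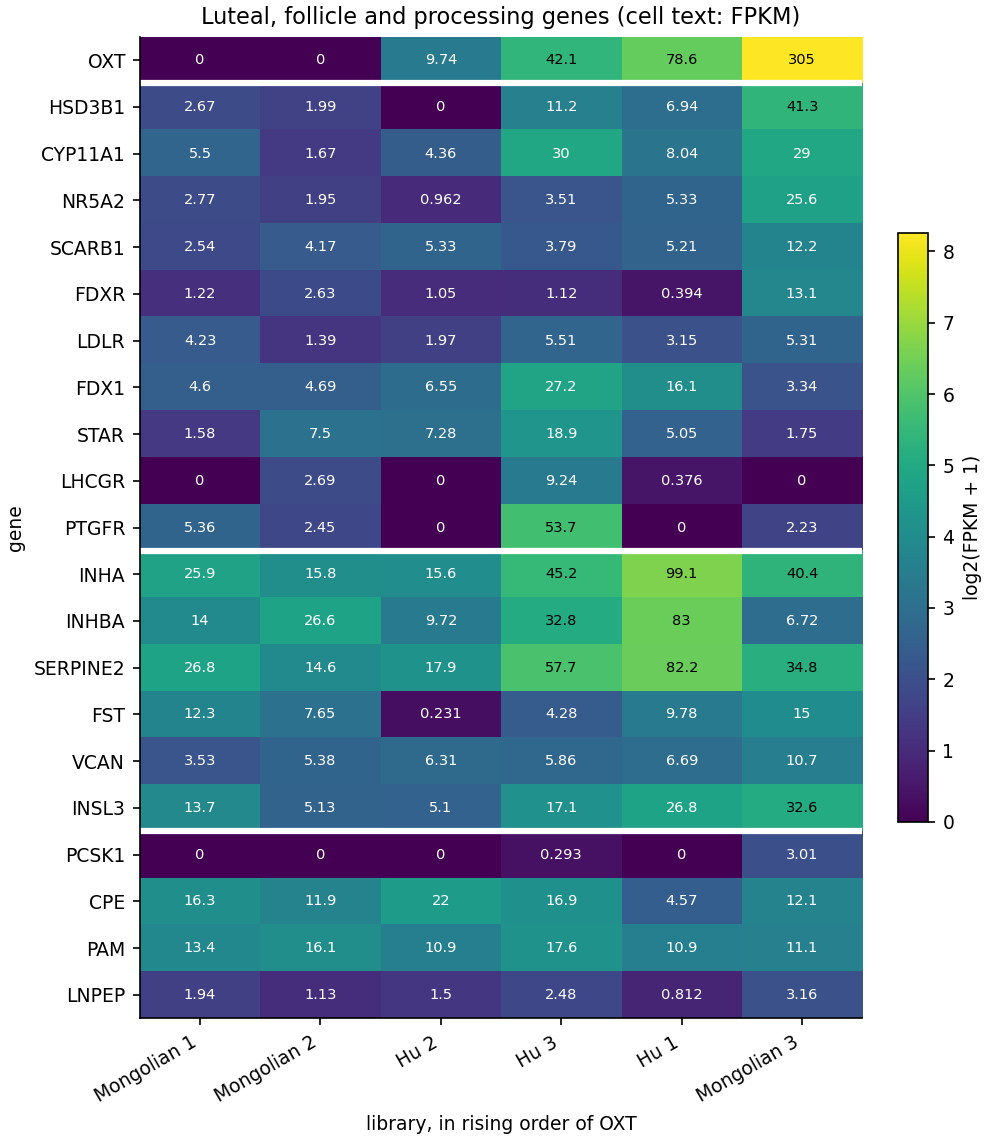
FPKM (printed in each cell) and log2(FPKM + 1) (colour) of OXT and of genes of the luteal, follicle and oxytocin-processing lists, with libraries in rising order of OXT from left to right. HSD3B1 and NR5A2 are highest in Mongolian 3 at the right, STAR, LHCGR and PTGFR in Hu 3, and INHA and INHBA in Hu 1.

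Ratios within a library are free of that library's scaling. OXT stood at 10.5 times the FPKM of CYP11A1 in Mongolian 3, 9.79 times in Hu 1, 2.24 times in Hu 2 and 1.41 times in Hu 3. Mongolian 3 and Hu 1 were thus close to each other by this ratio, and Hu 3 had far less OXT for its CYP11A1. Against HSD3B1 the ratio was 7.39 in Mongolian 3, 11.3 in Hu 1 and 3.76 in Hu 3. Against INHA, the inhibin alpha subunit of granulosa cells, it was 7.55 in Mongolian 3 and 0.626 to 0.931 in the 3 Hu libraries. In Mongolian 1 and Mongolian 2, OXT was listed at 0 although CYP11A1 was listed at 5.50 and 1.67 FPKM, the former above its level in Hu 2, which listed OXT.

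**Figure D4:**
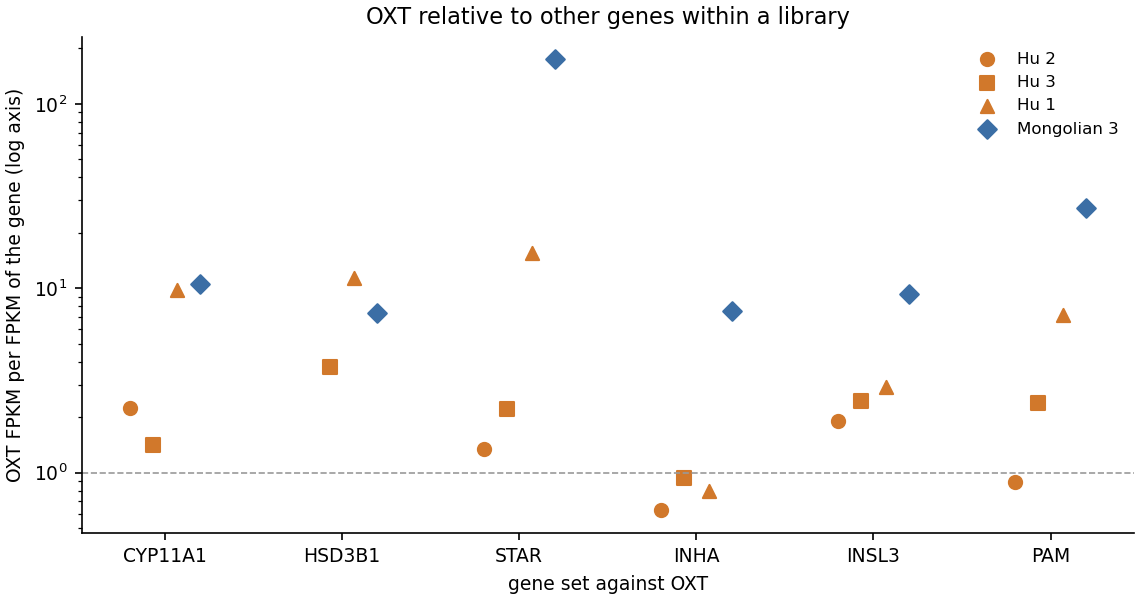
OXT FPKM divided by the FPKM of 6 other genes within the same library (log axis; dashed line at equal levels), for the 4 libraries that list OXT; blue is Mongolian and orange is Hu. Mongolian 3 is highest for every gene but HSD3B1, where Hu 1 stands above it at 11.3 against 7.39, and Hu 2 has no HSD3B1 ratio because that gene is listed at 0.

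Since granulosa cells also transcribe OXT, follicle markers were set beside it. INHA stood at 25.9, 15.8 and 40.4 FPKM in Mongolian 1, 2 and 3 and at 99.1, 15.6 and 45.2 in Hu 1, 2 and 3, and INHBA, the activin beta A subunit, at 13.98, 26.6 and 6.72 in Mongolian and 83.0, 9.72 and 32.8 in Hu. Hu 1, second in OXT, was the highest library for both and for SERPINE2, a granulosa protease inhibitor (82.2 FPKM against 14.6 to 57.7 elsewhere). INSL3, a hormone of theca cells, stood at 13.7, 5.13 and 32.6 FPKM in Mongolian and 26.8, 5.10 and 17.1 in Hu. In the deposited FPKM its 3 highest libraries were thus the 3 highest in OXT, in the same order. After median-of-ratios scaling INSL3 was higher in Hu 1 than in Mongolian 3. The same held with libraries set to 1 sum, with or without the 2 most abundant rows. Quantile normalization was not examined for INSL3. Other theca markers did not share its order. Of 7 tested theca genes 2 had a positive correlation with OXT, beside 49.0% of all genes tested. COLEC12 was lowest in Mongolian 3 at 6.45 FPKM and highest in Hu 3 at 15.3. The 10 listed granulosa markers summed to 137 FPKM in Mongolian 3, 287 in Hu 1, 169 in Hu 3, 61.5 in Hu 2, 126 in Mongolian 1 and 85.3 in Mongolian 2. FST, the activin antagonist follistatin, and GATA4, a transcription factor of granulosa cells, stood at 12.3 and 12.8 FPKM in Mongolian 1, which did not list OXT. In Hu 1 they stood at 9.78 and 6.05 FPKM. Both were highest in Mongolian 3, at 15.02 and 16.8 FPKM. FSHR, the follicle-stimulating hormone receptor, was also highest there, at 1.95 FPKM, with 0.946 in Hu 2, 0.585 in Hu 3 and 0 in Hu 1, Mongolian 1 and Mongolian 2. GJA1, a gap junction protein of granulosa cells, went the other way, with 26.7 FPKM in Mongolian 1, 1.75 in Mongolian 3 and 0.566 in Hu 1. Of the 9 tested markers 5 were highest in Mongolian 3 and 3 in Hu 1, beside 26.6% and 4.47% of all genes tested. CYP19A1, AMH and FOXL2 were not among the symbols of the table used here. The part of follicle cells in the level of OXT was not tested.

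Markers of the ovulatory response did not share 1 order. Of 4 tested, 2 were highest in Mongolian 3 and 2 in Hu 3, beside 26.6% and 45.0% of all genes tested. A positive correlation with OXT was found for 3 of the 4, beside 49.0% of all genes tested. NRIP1 was highest in Mongolian 3 at 14.3 FPKM, and ADAMTS1 in Hu 3 at 22.2. PGR, the progesterone receptor, stood at 21.1 FPKM in Hu 3 and at 0.788 in Mongolian 3, and PTX3, a matrix protein of the expanding cumulus, at 9.29 FPKM in Mongolian 3, 0 in Hu 1 and 1.08 to 3.90 in the other 4 libraries. PTGS2, the inducible prostaglandin synthase, was listed in Hu 3 alone, at 0.66 FPKM. Neural and pituitary markers were few: 3 of 13 were listed, summing to 9.78 FPKM in Mongolian 3 and to 0.985 to 5.56 in the others, with UCHL1 at 8.44 FPKM supplying most of the former, and POMC, STMN2 and TUBB3 were not among the symbols. Oocyte markers summed to at most 1.71 FPKM in any library, and blood markers were not listed. Stroma and smooth muscle markers summed to 1704 FPKM in Mongolian 3 and to 1497 to 2351 in the others, endothelial markers to 6.95 against 6.82 to 26.6, and leukocyte markers to 8.40 against 6.54 to 39.3, so Mongolian 3 lay within the range of the other libraries for each.

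Luteal matrix, vessel and secreted genes were also read against OXT. PAPPA, the protease that frees insulin-like growth factors from their binding proteins, stood at 4.75 FPKM in Mongolian 3, 0.99 in Hu 1, 0.719 in Hu 3 and 0 in the other 3 libraries, and thus kept the order of OXT among the libraries that listed it. VEGFA, the main angiogenic factor of the forming corpus luteum, stood at 2.96, 0.573 and 16.2 FPKM in Mongolian and at 0, 0.749 and 2.88 in Hu. TIMP1, a metalloproteinase inhibitor abundant in luteal tissue, stood at 24.3, 16.7 and 149 FPKM in Mongolian and at 44.0, 70.2 and 173 in Hu. IGFBP3 stood at 11.4, 22.0 and 53.4 FPKM in Mongolian and at 0, 0 and 18.3 in Hu. Of the 11 tested members of this list 6 were highest in Mongolian 3 and 4 in Hu 3, beside 26.6% and 45.0% of all genes tested. MGP, an abundant matrix protein, did not single out the libraries high in OXT, ranging from 389 to 819 FPKM with 391 in Mongolian 3.

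Genes downstream of the prolactin receptor were listed more often than PRLR itself. Of a list of 19, 16 were listed and 14 tested; PRL was not among the symbols. JAK2, the kinase bound to the receptor, stood at 1.43, 1.154 and 2.73 FPKM in Mongolian and at 0.685, 1.79 and 5.11 in Hu, STAT5A at 3.48, 3.49 and 6.72 in Mongolian and 3.36, 0.637 and 8.96 in Hu, and STAT5B at 9.34, 5.18 and 7.48 in Mongolian and 1.86, 8.04 and 11.6 in Hu. In the deposited FPKM each of these was highest in Hu 3, the library that listed PRLR, as were 9 of the 14 tested members, beside 45.0% of all genes tested. Hu 3 also had the largest summed FPKM without the 2 most abundant rows, 210272 against 90775 to 127397. After median-of-ratios scaling Hu 3 stood below Hu 2 for STAT5B and slightly below Mongolian 3 for STAT5A. Both also held with libraries set to 1 sum without the 2 most abundant rows, but not with those rows kept. Other places of this list after scaling were not examined. PTPN11, a phosphatase of the pathway, reached 30.9 FPKM in Hu 3 and 12.05 in Mongolian 3, and the adaptor SHC1 was highest in Mongolian 3 at 25.4 FPKM. Feedback genes differed: SOCS2 was highest in Mongolian 3 (8.39 FPKM) and at 0 in Hu 1 and Hu 2, and CISH, a direct STAT5 target, reached 2.10 FPKM in Hu 3. HSD17B7, an enzyme known to bind PRLR in luteal cells, was listed in Hu 3 alone, at 1.80 FPKM. So were 7.87% of all rows, and 6 of the 133 listed genes of all lists (4.51%). Genes that handle calcium, the ion that regucalcin binds, were listed more widely than RGN: of 12 on the list in the table, 4 were at 0 in Hu 1, 3 in Hu 2, 1 in Mongolian 3 and none elsewhere. CALR, an endoplasmic reticulum calcium store protein, stood at 79.6 to 161 FPKM. The pumps ATP2A2 and ATP2B1 stood at 3.61 to 14.1 and 3.42 to 6.65 FPKM, with ATP2A2 highest in Mongolian 3 and ATP2B1 in Mongolian 2.

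Few genes followed OXT through all 6 libraries. Of 9970 other genes tested, 5 stood in exactly its order (0.0502%) and 1 in exactly the reverse order (0.01%). The 3 of the 5 with a symbol and a mean of at least 2 FPKM were DUS1L, a tRNA-modifying enzyme, D2HGDH, a mitochondrial dehydrogenase, and INTS6L, related to an Integrator subunit. DUS1L stood at 2.13 and 0.817 FPKM in Mongolian 1 and 2, 2.36 in Hu 2, 3.70 in Hu 3, 4.71 in Hu 1 and 5.23 in Mongolian 3, a far narrower range than that of OXT. D2HGDH rose from 0 in Mongolian 1 to 6.72 FPKM in Mongolian 3, and INTS6L ranged from 0.393 to 4.80. MED16 and an unnamed gene, ENSOARG00000004768, were the others. None of the 109 tested list genes stood in exactly the order of OXT.

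A looser count used the 14 pairs of libraries that OXT separates. The median tested gene stood the same way as OXT in 7 of them, and 141 genes (1.41%) did so in at least 12. Among the 109 list genes 4 did: VCAN, a matrix proteoglycan of the follicle, in 13, and NR5A2, INSL3 and PAPPA in 12 each. HSD3B1, CYP11A1 and SCARB1 did so in 11, INHA in 10, STAR in 6 and PTGFR in 5. The lists were chosen with earlier results of these libraries known, so this count is no independent support.

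**Figure D5:**
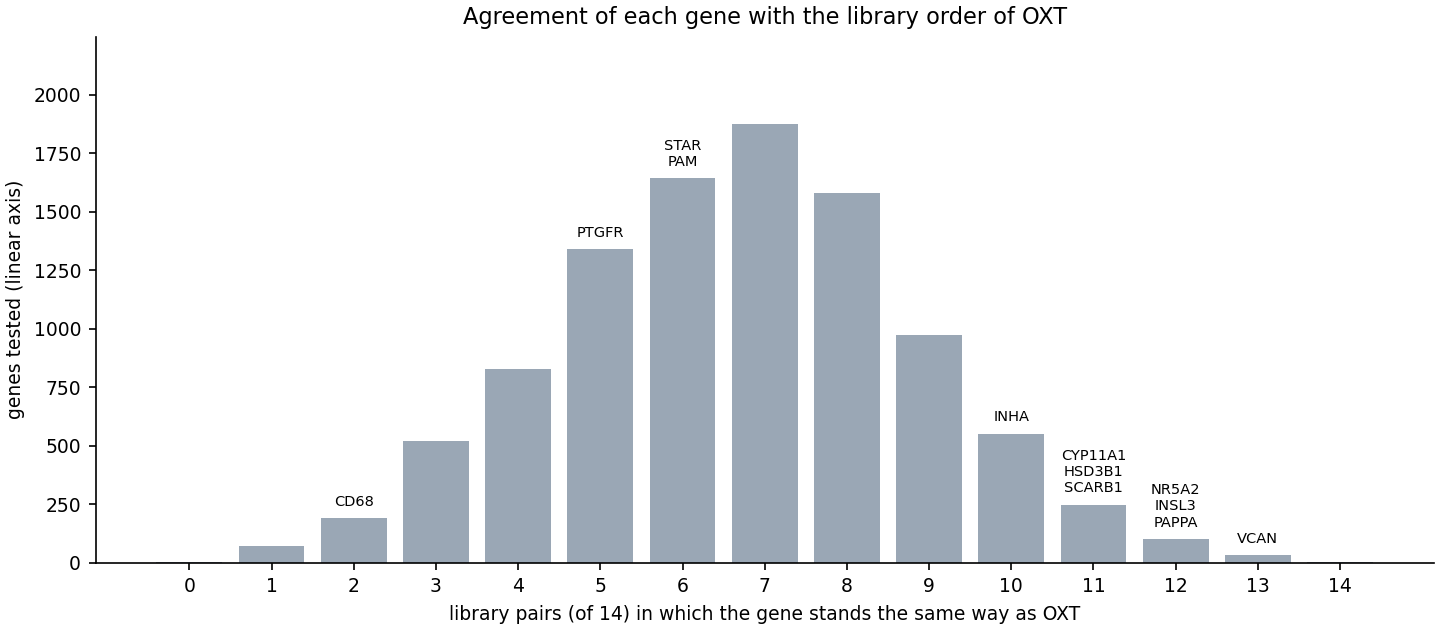
Number of tested genes (linear axis) by the number of library pairs, of the 14 that OXT separates, in which the gene stands the same way as OXT; named genes are written above their bar. The median is 7, STAR and PTGFR lie at 6 and 5, and VCAN, at 13, is the highest of the genes named.

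Correlation over the 6 libraries was computed for every tested gene on log2(FPKM + 1). After Benjamini-Hochberg adjustment over 9970 genes, 0 had a two-sided exact permutation p under 0.05. At an unadjusted p under 0.05 there were 134 (1.34%), 87 with a positive and 47 with a negative coefficient, and 147 by rank correlation. Because the values tie in 2 libraries, the smallest p that the 720 orderings can give is 0.00278, so that a single gene could not have passed. VCAN had r = 0.86 (exact permutation p = 0.0139, adjusted p = 1) and rho = 0.93 (exact p = 0.0222, adjusted p = 0.998), and r = 0.81 over the 4 libraries left without Mongolian 1 and Mongolian 2, the farthest from the median of OXT. PAPPA had r = 0.87 (exact permutation p = 0.00833, adjusted p = 1) and rho = 0.95 (exact p = 0.00833, adjusted p = 0.998), and r = 0.97 without those libraries. For NR5A2 r was 0.73 and for CYP11A1 0.80 (exact permutation p = 0.0667 and 0.0694). Of the 109 list genes 4 had an unadjusted p under 0.05. The other two were SCARB1, with r = 0.77 (exact permutation p = 0.0444, and r = 0.71 without those libraries), and the neural gene SYT1, with r = -0.90 (exact permutation p = 0.0222), which fell to -0.36 without them and so rests on Mongolian 1 and Mongolian 2.

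Between breeds, no gene of the lists passed the test. With limma over 9971 genes, 0% had a Benjamini-Hochberg adjusted p under 0.05 and 3.73% an unadjusted p under 0.05, and of the 109 tested list genes 0 and 6 did. The 6 were FDX1 and AKR1B1, a prostaglandin F synthase, with log2 differences (Hu minus Mongolian) of 1.57 ± 0.64 and 1.18 ± 0.52 (SE), and GNA11, IRF1, HSD17B1 and IGFBP3, with -2.42 ± 0.83, -2.37 ± 0.83, -2.08 ± 0.69 and -3.22 ± 0.98; the limma adjusted p was 0.998 for each. Without overlap, FDX1 ranged from 3.34 to 4.69 FPKM in Mongolian and from 6.55 to 27.2 in Hu, and AKR1B1 from 7.72 to 12.4 in Mongolian and from 20.5 to 26.8 in Hu. Genes with all Hu values above all Mongolian values made up 1.88% of those tested. IGFBP3, GNA11 and IRF1 were listed at 0 in Hu 1 and Hu 2, and HSD17B1 as well. In the luteal steroid and receptor list 5 of 12 members had a positive difference, beside 32.3% of all genes, with a median of -0.12 beside -0.28. This median turned positive without Mongolian 3 (0.35), Hu 1 (0.36) or Hu 2 (0.31), after quantile normalization (0.0037) and with libraries set to 1 sum (0.074), so no breed can be called higher for it. Those scalings moved the median of all genes to -0.10 and -0.09, and the list's median stood above that of all genes by 0.10 and 0.16 under them and by 0.15 as deposited. The medians of the oxytocin and prolactin lists were -0.24 and -0.25, close to that of all genes, with 1 of 9 and 3 of 14 members positive.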

How the data were processed

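The authors deposited FPKM values for 14480 genes and 2455 lncRNAs, per the file headers with a column per library; their aligner, quantifier, build and filters are not stated in the labels or headers used. Per the labels' protocols, 1 μg of total RNA entered each polyadenylated RNA library, made with a SMARTer kit. Columns were matched to libraries by the codes in the sample descriptions. Read counts were not used, so depth is unknown, and a 0 can be a missed transcript. No pair of libraries shared an identical value above 0.

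The 9971 genes that reached 0.5 FPKM in 3 or more libraries were tested on log2(FPKM + 1), a scale that understates changes of low genes, with limma 3.58.1 in R 4.3.3 (trend, breed as the only factor, all 6 libraries, two-sided, Benjamini-Hochberg over all genes tested, threshold 0.05). P-values measure the spread between these libraries, which may be technical. Correlations with OXT used exact permutation over 720 orderings (Python 3.11.15, numpy 2.4.6). Both were tested on simulated data. Other pseudocounts, filters and scalings, a replicate block and leaving out each library were tried. The highest library of each named gene other than OXT was read in the deposited FPKM. Places under other scalings are given only for INSL3, FDX1, CYP11A1, STAT5A and STAT5B, from the factor that scales each library. Where a symbol had several rows (CALM2, SOD1), the row with the highest mean was used, and reads of such copies may be split. The lncRNA table was used at a minimum and pseudocount of 0.1 FPKM.

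The members and the 15 gene lists were chosen with earlier results of these data known. Named genes were list members with a mean of at least 5 FPKM in either breed or a defining role, genes in the order of OXT with a mean of at least 2 FPKM, and the 5 nearest to RGN and PRLR; abundant members of the stroma, calcium, prolactin and other cell type lists are given by sums or ranges. LNPEP, PCSK1, PAPPA, PTX3, PTGS2, SOCS2, CISH, JAK2, HSD17B7, HSD17B1, FSHR, SYT1, MED16, UCHL1 and the genes of the closing observations were named after their values were seen. A few genes that these rules name are not reported here. No sequence or coordinate is given; gene order, used for neighbours of OXT and RGN, came from the RefSeq table of ARS-UI_Ramb_v3.0, in which 10065 of 10189 symbols were found.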

Additional observations from a re-analysis of the deposited data

How the results depend on the processing

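The log2 difference of OXT stayed positive in every alternative run (0.93 to 5.06 with a library left out) and moved beyond the spread within breeds only with a pseudocount of 0.01 (6.67). That of RGN was 1.51 and 2.60 and that of PRLR 0.78 and 1.79 with pseudocounts of 0.1 and 0.01, and both were 0 without Hu 3 and at most 0.84 and 0.25 without another library. The number of genes in exactly the order of OXT, 5, was 0 with a minimum of 5 FPKM, 2 with median-of-ratios scaling, 3 with quantile normalization, 9 with libraries set to 1 sum and 15 with that sum taken without the 2 most abundant rows. It was 15 to 159 with a library left out, where fewer libraries constrain the order, and 4 among rows above 0 in all 6 libraries, a setting chosen after seeing the data. The reverse order was commoner than the same order with median-of-ratios scaling (14 genes), with quantile normalization (7), with a minimum of 5 FPKM (1), and without Mongolian 3 (92) or Hu 3 (95). The correlation test called 0 genes in every setting. The median of the luteal steroid and receptor list, -0.12, was 0.19 with a minimum of 5 FPKM, 0.0037 with quantile normalization, 0.074 with libraries set to 1 sum, 0.26 among rows above 0 in all 6 libraries, and -0.60 to 0.36 with a library left out; beyond fewer genes or libraries, the cause was not tested. limma called 0 to 4 genes with a library left out (2 without Hu 2, 4 without Hu 3), none of them a list gene, and 0 in the other settings. With the replicate number as a block it called 0 genes, and the difference of OXT was 2.30 as without it. Deviations of libraries that share a number correlated at -0.01, -0.03 and -0.18, and no library correlated best with its own number. With 3 libraries per breed these coefficients constrain one another and cannot decide whether the numbers pair the libraries. Depth is unknown, so a value of 0 has no upper limit here.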

Other observations

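OXT shared its pattern of listing, at 0 in Mongolian 1 and Mongolian 2 and above 0 elsewhere, with 4 other rows of the gene table (0.0276%). COL8A1, a short-chain collagen of vessel walls, stood at 0.351 FPKM in Mongolian 3 and at 4.50, 1.28 and 0.731 in Hu 1, 2 and 3. PAMR1, a secreted protease-like protein, stood at 0.803 FPKM in Mongolian 3 and at 2.87, 0.800 and 1.89 in Hu. For both, the highest library was Hu 1. The other two rows have no symbol. ENSOARG00000019943 was, like OXT, highest in Mongolian 3, at 8.69 FPKM against 1.18, 0.931 and 2.22 in Hu, and ENSOARG00000003488 was highest in Hu 3, at 28.9 FPKM against 16.9 in Mongolian 3.

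The genes closest to OXT by correlation, among named genes with a mean of at least 2 FPKM, included ABCF1, a translation factor of the ABC family. ABCF1 stood at 7.55, 6.61 and 18.4 FPKM in Mongolian 1, 2 and 3 and at 13.8, 11.3 and 15.3 in Hu, with r = 0.98 over 6 libraries (exact permutation p = 0.00556, adjusted p = 1) and r = 0.92 without Mongolian 1 and Mongolian 2. MFGE8, a secreted protein that bridges dying cells and phagocytes, stood at 12.4, 8.44 and 50.4 FPKM in Mongolian and 17.9, 15.8 and 21.8 in Hu. Opposite to OXT was KLF9, a progesterone-responsive transcription factor, at 15.8, 14.2 and 2.34 FPKM in Mongolian and 3.80, 7.30 and 9.46 in Hu, with r = -0.92 (exact permutation p = 0.0167, adjusted p = 1). These genes were chosen from 9970 for their coefficient.

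Neighbours of OXT on the chromosome, by gene order in the ARS-UI_Ramb_v3.0 annotation, differed among themselves. MRPS26, a mitochondrial ribosomal protein gene next to it, stood at 8.63, 6.93 and 0 FPKM in Mongolian and at 0, 0 and 4.31 in Hu, nearly the opposite. DDRGK1 stood at 2.14, 2.96 and 4.90 FPKM in Mongolian and 3.14, 1.62 and 2.87 in Hu. It thus kept the order of OXT over the 4 libraries that list OXT and stood the same way in 11 of 14 pairs, but was above Hu 2 in both libraries without OXT (r = 0.62 over 6 libraries, exact permutation p = 0.183, adjusted p = 1; rho = 0.67, exact p = 0.161; r = 0.995 without Mongolian 1 and Mongolian 2). UBOX5 was listed in Hu 3 alone, at 0.643 FPKM. Near RGN, NDUFB11 was listed in all 6 libraries at 4.40 to 14.9 FPKM, whereas SLC9A7, like RGN, was listed in Hu 3 alone, at 0.505 FPKM.

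Of 417 lncRNAs tested, 1 stood in the order of OXT and 0 in the reverse order. It was MSTRG.46860, assembled in the study, at 0.632, 1.03 and 4.70 FPKM in Mongolian and 3.27, 3.16 and 3.17 in Hu. The exact permutation test called 0 lncRNAs after adjustment and 4 at an unadjusted p under 0.05.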
